A study of Mus musculus with 8 samples.

Results

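The group described here is made up of 9 genes: 7 interferon regulatory factor genes (Irf1, Irf2, Irf3, Irf5, Irf7, Irf8 and Irf9) and 2 STAT genes (Stat2 and Stat3), taken by symbol from the 27998 genes counted in single microglia. Microglia are the resident macrophages of the brain and spinal cord. YFP (+) cells were sorted from the lumbar spinal cord of young adult C57BL/6 mice of both sexes, and scRNA-Seq libraries were made with 10x Genomics 3′ reagents, which tag every captured RNA molecule with a unique molecular identifier (UMI). All animals carried yfp and creER, a Cre recombinase that tamoxifen activates, on 1 Cx3cr1 allele, so Cre acts in cells that express Cx3cr1, and tamoxifen was given to induce recombination. Control libraries (Cx3cr1-yfp-creER/+) were from naive mice and from mice on day 1, 2 or 3 after bilateral transection of the sciatic nerve, an injury after which lumbar microglia divide. A20 cKO libraries were from mice that also carried floxed alleles of Tnfaip3 (Tnfaip3 fl/fl), which encodes A20, a brake on NF-kB signalling, at the same 4 time points. Cords of 3 animals were pooled per library and each group was 1 library, so no test between groups was possible. The intervals given are 95% intervals that cover counting error only.

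IRF proteins bind DNA through a shared domain that recognizes GAAA repeats, the core of the interferon-stimulated response element (ISRE). Irf3 and Irf7 are activated by phosphorylation downstream of sensors of nucleic acids and drive transcription of type I interferon genes, and Irf5 acts downstream of Toll-like receptors. Stat2 and Irf9 are subunits of ISGF3, the complex that activates interferon-stimulated genes (ISGs) after the type I interferon receptor is engaged, and Irf7 is itself an ISG. Irf1 is an activator and Irf2 largely a repressor at such elements. Irf8 is a lineage factor of microglia and other macrophages, and Stat3 transmits signals of the IL-6 and IL-10 receptor families.

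All 9 genes had at least 43 UMIs in every library. The 8 libraries held 14626 kept cells of 14883 barcodes, with medians of 2780 to 4274 UMIs per kept cell. All 10 microglia markers were detected in each library, with a summed level of 13132 to 28352 CPM (UMIs of a gene relative to all UMIs of the library), lowest in A20 cKO day 2. Markers of other cells were not even over the libraries: Ttr of the choroid plexus and S100a8 of neutrophils were at 0 UMIs in control naive, day 1 and day 2 and were present in control day 3 and in the 4 A20 cKO libraries (Ttr 126 to 397 CPM). Summed over each list, choroid and ependymal markers were at 0 to 0.285 CPM in the former and 131 to 414 CPM in the latter libraries, neutrophil markers at 0 and 20.1 to 35.0 CPM, and monocyte markers at 2.21 to 3.70 and 27.0 to 86.0 CPM. Astrocyte markers were at 105 to 164 and 261 to 394 CPM, and oligodendrocyte markers at 61.1 to 83.3 and 150.3 to 203 CPM. Perivascular macrophage markers were at 0.569 to 1.23 and 1.57 to 4.28 CPM, and neuron markers at 1.23 to 2.78 and 3.36 to 12.9 CPM. The remaining lists were not higher in all linked-side libraries. Endothelial markers were at 13.6 to 51.2 and 26.8 to 46.2 CPM. Lymphocyte markers were at 38.2 to 54.8 and 21.6 to 37.3 CPM, and dendritic cell markers at 2.66 to 9.26 and 3.30 to 5.90 CPM. Slc1a3, Mag, Plac8, Cd79b and Pecam1 of these lists were taken as also held by microglia. Log2 ratios of the members were also taken without cells holding such markers, as given in the last section. Beyond this, the part of these markers in the results was not tested. The same 5 libraries shared 256 cell barcodes over 10 pairs, against 27 over the 3 pairs of the other libraries and 98 over the 15 pairs between these sets. They are called the linked libraries below. A difference between a linked library and control naive, day 1 or day 2 cannot be told apart from this split. Within the linked libraries, genotypes can be compared on day 3, by 1 library each. These day 3 libraries also differed in markers. In control and A20 cKO, microglia markers summed to 20643.6 and 14767.5 CPM, and choroid and ependymal markers to 228 and 410 CPM. Monocyte markers were at 27.0 and 60.6 CPM, and neutrophil markers at 25.8 and 20.1 CPM. A20 cKO naive and control day 3 are both linked libraries, but they differ in injury as well as genotype, and these cannot be told apart. From naive to day 3, Tnfaip3 itself was at 24.1, 25.3, 6.83 and 20.3 CPM in controls and at 47.4, 42.3, 52.4 and 67.7 CPM in A20 cKO. It was thus not lower in the libraries labelled A20 cKO. Reads at the 3′ end count any transcript that keeps this end, and which part the floxed alleles remove is not given in the sources used here, so these counts do not check the labels.

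Promoter windows of the members were searched for 2 motifs: the ISRE core GAAANNGAAA on either strand, and the GAS element TTCNNNGAA, a palindromic STAT site. Windows were taken from RefSeq on GRCm38.p6 and ran from 250 bases before to 50 bases after the start. All 9 members matched a window. The ISRE core was found in 3.44% and the GAS letters in 8.30% of 32851 mouse windows. The stretch from base -250 to -61 is shown for Stat2 and Irf7, the members whose levels varied most, and for the 3 further members with a match. Capitals mark the matches, which did not overlap. The stretches lie at chr10:128270248-128270437 (Stat2, + strand), chr7:141266485-141266674 (Irf7, - strand), chr8:46739495-46739684 (Irf2, + strand), chr8:120736108-120736297 (Irf8, + strand) and chr11:53769764-53769953 (Irf1, + strand).
Stat2: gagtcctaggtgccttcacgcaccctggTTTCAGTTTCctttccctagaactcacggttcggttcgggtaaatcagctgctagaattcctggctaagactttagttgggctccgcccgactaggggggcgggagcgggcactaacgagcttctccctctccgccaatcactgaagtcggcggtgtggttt
Irf7: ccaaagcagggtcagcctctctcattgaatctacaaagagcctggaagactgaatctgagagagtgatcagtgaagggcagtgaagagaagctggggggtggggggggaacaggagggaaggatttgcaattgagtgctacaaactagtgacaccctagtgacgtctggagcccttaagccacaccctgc
Irf2: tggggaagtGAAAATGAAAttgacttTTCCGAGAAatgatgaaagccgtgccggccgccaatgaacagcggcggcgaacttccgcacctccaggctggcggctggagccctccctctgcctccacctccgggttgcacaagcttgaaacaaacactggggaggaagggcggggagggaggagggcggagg
Irf8: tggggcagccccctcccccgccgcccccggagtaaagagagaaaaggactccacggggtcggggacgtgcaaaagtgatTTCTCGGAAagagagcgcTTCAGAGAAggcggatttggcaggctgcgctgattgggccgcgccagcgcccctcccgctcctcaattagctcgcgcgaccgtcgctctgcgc
Irf1: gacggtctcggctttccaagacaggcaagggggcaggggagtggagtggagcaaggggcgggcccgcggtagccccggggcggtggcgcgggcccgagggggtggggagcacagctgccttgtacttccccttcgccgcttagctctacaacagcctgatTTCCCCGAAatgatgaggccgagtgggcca
Stat2 held an ISRE core on the other strand at -222 to -213. Irf2 held an ISRE core at -241 to -232 and a GAS match at -224 to -216. Irf8 held GAS matches at -171 to -163 and -153 to -145, and Irf1 held a GAS match at -90 to -82. Neither set of letters was found in the windows of Irf7, Irf3, Irf5, Irf9 or Stat3, which says nothing about binding outside these windows.

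Irf7 and Stat2 stood apart from the other 7 members in how much they varied. The standard deviation (SD) of log2 CPM over the 8 libraries was 2.16 for Irf7 and 1.41 for Stat2, above 99.3% and 98.2% of the 3470 genes that averaged 50 CPM or more. For the other 7 members it lay between 0.23 (Irf8, above 29.5% of these genes) and 0.49 (Irf2, above 80.9%), with the median gene at 0.30. UMIs were not scaled by transcript length, so levels are compared between libraries and not between genes.

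**Figure D1:**
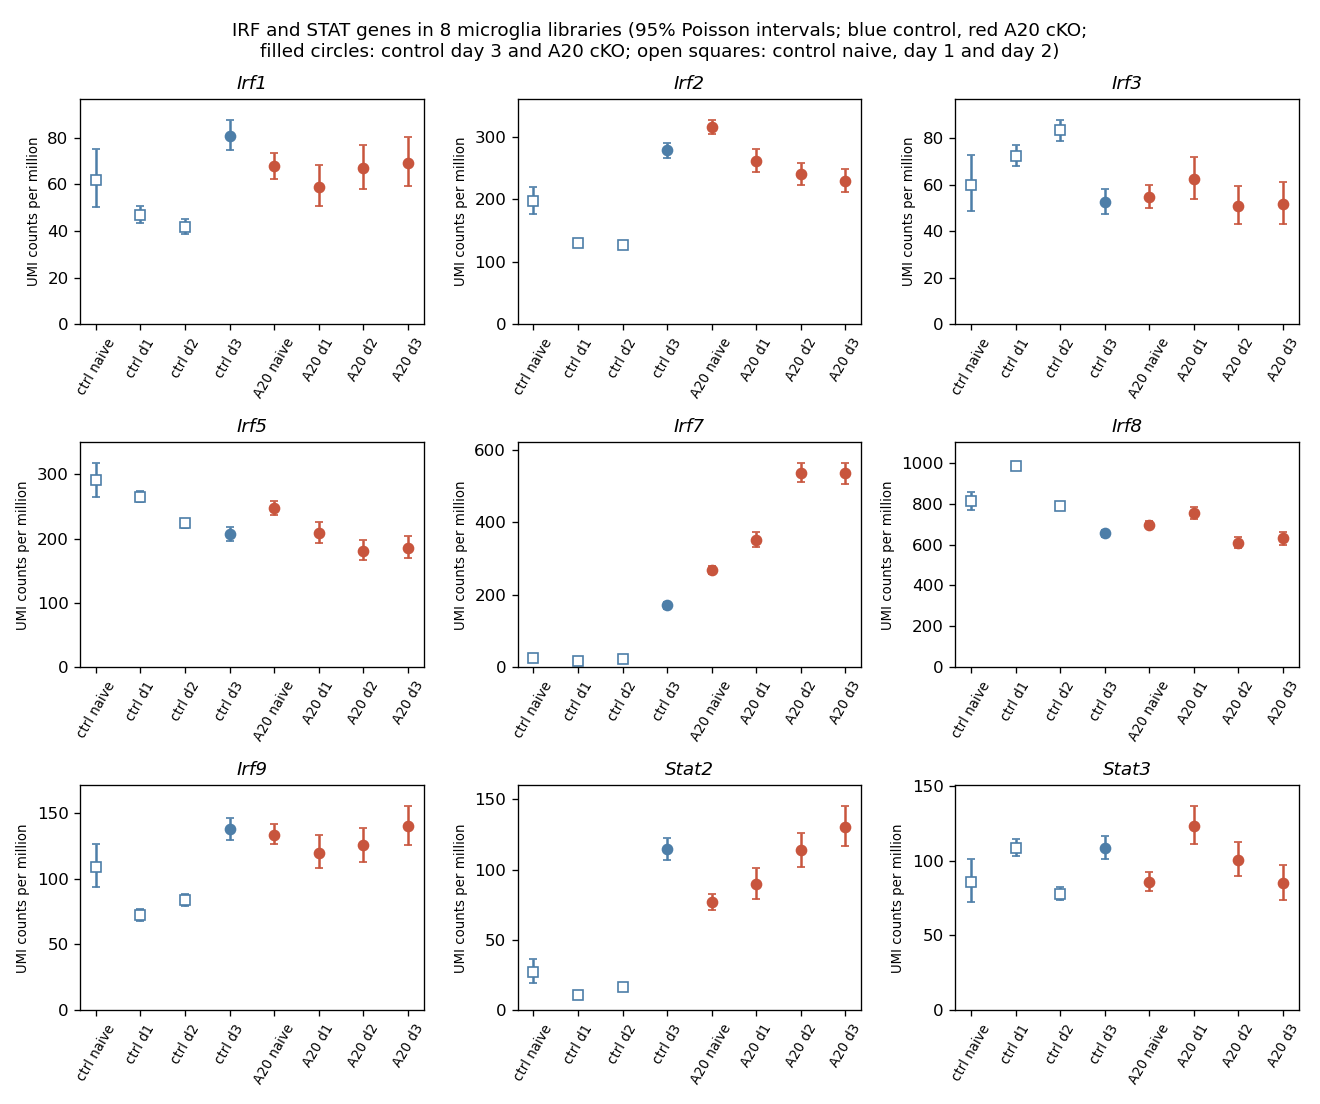
Level of each member (y axis, CPM, starting at 0) in each of the 8 libraries (x axis), 1 point per library with its 95% Poisson interval. Blue marks control and red A20 cKO, and filled circles mark the linked libraries. Irf7 ran from 15.9 CPM in control day 1 to 537 CPM in A20 cKO day 2, while Irf8 stayed between 608 and 983 CPM.

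Irf7 (ENSMUSG00000025498), the interferon-induced factor for type I interferon genes (chr7:141262706-141266481, - strand, GRCm38), was at 26.5, 15.9 and 21.4 CPM in control naive, day 1 and day 2 and at 171 CPM in control day 3. In A20 cKO it was at 269 CPM in naive mice and at 352, 537 and 535 CPM on day 1, 2 and 3. The libraries thus fell into an order in which each of the steps from control day 3 up to A20 cKO naive, day 1 and day 3 exceeded its counting interval, and A20 cKO day 2 and day 3 did not differ beyond theirs. On day 3, within the linked libraries, Irf7 was 3.13-fold higher in A20 cKO (log2 ratio 1.64, 1.53 to 1.76), which placed it above 99.2% of the genes tested. A20 cKO naive exceeded control day 3 by 0.65 on the log2 scale (0.55 to 0.75). Within A20 cKO, which lies inside the linked set, Irf7 exceeded its naive level by 0.39 (0.29 to 0.50), 1.00 (0.91 to 1.09) and 0.99 (0.90 to 1.09) for day 1, 2 and 3. In controls, day 1 was lower than naive (-0.76, -1.22 to -0.24), the ratio on day 2 was -0.33 (-0.77 to 0.18), and day 3 was higher by 2.67 (2.25 to 3.16). A20 cKO exceeded control by 3.32 in naive mice, 4.47 on day 1 and 4.65 on day 2, all across the split of the libraries. A gene on the opposite strand, Phrf1, overlaps Irf7 and held 1716 UMIs over all libraries against 8298 of Irf7.

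Stat2 (ENSMUSG00000040033), a STAT subunit of ISGF3 (chr10:128270559-128292849, + strand), showed another order. It was at 27.2, 10.95 and 16.3 CPM in control naive, day 1 and day 2, at 114 CPM in control day 3, and at 76.7, 89.8, 114 and 131 CPM in A20 cKO naive, day 1, day 2 and day 3. All linked libraries lay above all others, but control day 3 lay among the A20 cKO libraries and did not differ from A20 cKO day 2 beyond its counting interval. On day 3 the genotypes differed by 0.19 (0.003 to 0.38), and A20 cKO naive was lower than control day 3 (-0.58, -0.73 to -0.43). Irf7 was higher than control day 3 in the same A20 cKO naive library. Within A20 cKO, Stat2 was higher than naive by 0.23 (0.02 to 0.43), 0.57 (0.38 to 0.76) and 0.77 (0.57 to 0.96) for day 1, 2 and 3. In controls it was lower than naive on day 1 (-1.32, -1.80 to -0.79) and day 2 (-0.75, -1.20 to -0.24) and higher on day 3 (2.06, 1.64 to 2.55). A20 cKO exceeded control by 1.48 in naive mice, 3.03 on day 1 and 2.80 on day 2.

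Irf9 (chr14:55603571-55610030, + strand), the DNA-binding subunit of ISGF3, varied far less than Stat2. From naive to day 3 it was at 109, 72.5, 83.8 and 138 CPM in controls and at 134, 119.9, 125 and 140.1 CPM in A20 cKO. The 5 linked libraries did not differ from their neighbours in rank beyond counting error. On day 3 the genotype ratio was 0.03 (-0.15 to 0.20). Irf9 overlaps Rnf31 on the same strand, which held 1182 UMIs against 5814. How reads in the overlap were counted was not checked.

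Irf1 and Irf2, an activator and a repressor at shared sites, were both lowest in control day 1 and day 2. Irf2 (chr8:46739732-46847458, + strand) was at 197, 130.1, 127 and 278 CPM in the control libraries from naive to day 3 and at 315, 262, 239.6 and 229 CPM in A20 cKO. Its highest level was thus in A20 cKO naive, and within A20 cKO it was lower than naive on every day, with log2 ratios of -0.27 (-0.38 to -0.15), -0.40 (-0.52 to -0.28) and -0.46 (-0.59 to -0.33) for day 1, 2 and 3. In controls day 3 was higher than naive by 0.50 (0.33 to 0.67), while day 1 (-0.60) and day 2 (-0.63) were lower. On day 3 A20 cKO was lower than control (-0.28, -0.42 to -0.15). Irf1 (chr11:53770014-53778374, + strand) was at 61.7, 46.9, 41.7 and 81.0 CPM in controls and at 67.7, 59.1, 66.9 and 69.3 CPM in A20 cKO. Within A20 cKO no day differed from naive beyond counting error, and the genotype ratio on day 3 was -0.22 (-0.48 to 0.02).

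Irf3 and Irf5 act downstream of innate sensors. Irf3 (chr7:44997648-45002848, + strand), which acts with Irf7 on interferon genes, was at 59.9, 72.5, 83.4 and 52.7 CPM in controls and at 54.7, 62.4, 50.8 and 51.5 CPM in A20 cKO. Its highest level was in control day 2, above naive by 0.47 (0.18 to 0.79), and the genotype ratio on day 3 was -0.03 (-0.33 to 0.26). Irf5 (chr6:29526625-29541871, + strand) was at 291, 265, 224 and 207 CPM in controls and at 247, 209, 182 and 186 CPM in A20 cKO. It was highest in control naive and, within each genotype, was lower on day 2 and day 3 than in naive mice, by -0.38 (-0.52 to -0.23) and -0.49 (-0.64 to -0.33) in controls and by -0.45 (-0.58 to -0.31) and -0.41 (-0.56 to -0.27) in A20 cKO. In A20 cKO naive, however, Irf5 was higher than in control day 3 by 0.25 (0.16 to 0.35), while the genotype ratio on day 3 was -0.15 (-0.31 to -0.01). Genes on the opposite strand overlap both: Bcl2l12 with Irf3 (1699 against 3781 UMIs) and Tnpo3 with Irf5 (10903 against 13115 UMIs).

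Irf8 (chr8:120736358-120756694, + strand) was high throughout: 813, 983, 790.5 and 654 CPM in controls and 697, 754, 608 and 630.4 CPM in A20 cKO. It was highest on day 1 in both genotypes, by 0.27 over naive in controls (0.19 to 0.36) and by 0.11 in A20 cKO (0.04 to 0.18), and on day 3 it was below naive by -0.31 (-0.40 to -0.23) and -0.14 (-0.22 to -0.07). The genotype ratio on day 3 was -0.05 (-0.14 to 0.03). Stat3 (chr11:100885098-100939540, - strand) was at 85.8, 109, 77.7 and 109 CPM in controls and at 86.0, 123, 101 and 85.0 CPM in A20 cKO. Day 1 exceeded naive in both genotypes, by 0.34 in controls (0.09 to 0.60) and by 0.52 in A20 cKO (0.34 to 0.70), and on day 3 A20 cKO was lower than control (-0.35, -0.58 to -0.13). Stat5a overlaps Stat3 on the opposite strand, with 562 against 5348 UMIs.

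Counts of members past 2-fold were read against all genes with at least 100 UMIs in both libraries together. In control day 1 against naive, no member was 2-fold higher and 1 of 9 (Stat2) was 2-fold lower, against 3.82% and 7.25% of all genes. On day 2 no member was past 2-fold in either direction (5.92% and 6.28% of all genes). On day 3, 2 of 9 (Irf7 and Stat2) were higher and none lower (8.76% and 2.32%). In A20 cKO no member was past 2-fold against naive on day 1 (1.56% higher and 1.39% lower over all genes), day 2 (2.86% and 2.65%) or day 3 (1.92% and 2%), although Irf7 on day 2 and day 3 lay just under the 2-fold line. In A20 cKO against control, 2 of 9 (Irf7 and Stat2) were higher in naive mice (7.43% higher and 2.22% lower over all genes), 3 of 9 (with Irf2, at 1.01) on day 1 (15.5% and 3.25%) and 2 of 9 on day 2 (10.7% and 4.66%). In these 3 comparisons no member was 2-fold lower. On day 3 only Irf7 of the 9 was 2-fold higher and none was lower (1.86% and 2.40%). In A20 cKO naive against control day 3 no member was past 2-fold (0.964% and 1.49%). Shares of 1 in 9 or 2 in 9 rest on Irf7 and Stat2, and the median log2 ratio of the 9 members on day 3, -0.05, lay near that of all genes, -0.12.

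**Figure D2:**
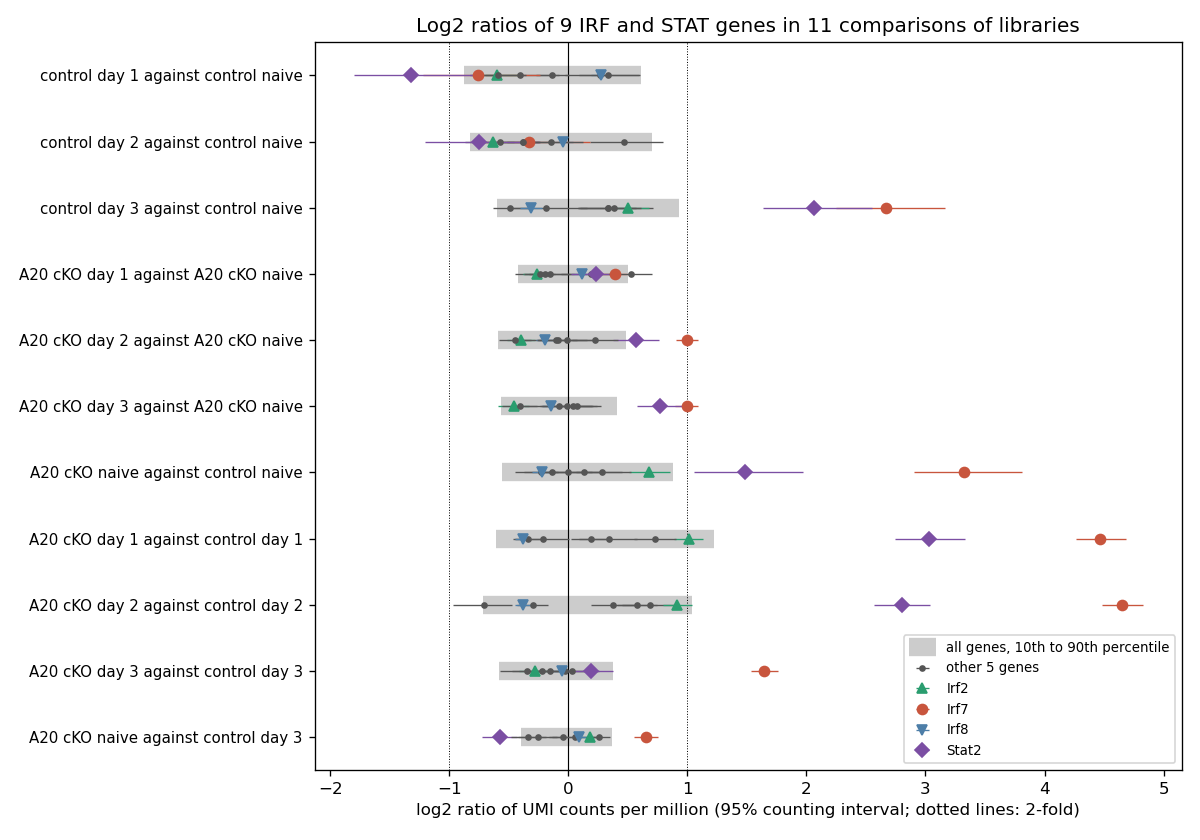
Log2 ratio of CPM (x axis) of the 9 members in 11 comparisons of libraries (y axis), with 95% counting intervals, and the range from the 10th to the 90th percentile of all genes tested as a grey bar. Irf7 lay right of the bar in all 5 comparisons of an A20 cKO with a control library, at 1.64 on day 3. Stat2 lay inside it on day 3 (0.19) and left of it in A20 cKO naive against control day 3 (-0.58), which differ in injury too.

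The genes whose profiles over the 8 libraries were most like those of Irf7 and Stat2 were found by the root mean square difference of centred log2 CPM, over 3284 genes that averaged 50 CPM or more. Nearest to Irf7 were Cd300lf, an inhibitory receptor of myeloid cells, at 0.28, Samd9l at 0.30 and Pyhin1 at 0.32. Cd300lf ran from 5.12 CPM in control day 1 to 35.1 CPM in control day 3 and 129 CPM in A20 cKO day 3. Nearest to Stat2 was Herc6, an ISG, at 0.12, with 146 CPM in control day 3 and 187 CPM in A20 cKO day 3. Sp100, a nuclear body protein, followed at 0.20. The 8 points share library, depth and the split described above, and a likeness over them is a description.

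Irf7 and Stat2 were found in a larger share of cells in the linked libraries. To compare shares of cells across depths, cells were thinned to 2000 UMIs, which left 502 to 3480 cells per library and left out between 20 and 310. An Irf7 UMI was found in 4.58%, 3.04% and 4.14% of cells in control naive, day 1 and day 2 and in 22.4% (20.5% to 24.3%) in control day 3. In A20 cKO the share was 30.1% (28.3% to 31.9%) in naive mice, 35.1% on day 1, 56.5% on day 2 and 57.8% (53.5% to 62.0%) on day 3. Cells with 3 or more Irf7 UMIs made up 1.97% of control day 3 and 13.6% of A20 cKO day 3. Stat2 was found in 5.78%, 2.36%, 3.05% and 17.4% of cells in controls and in 11.4%, 13.6%, 19.2% and 22.3% in A20 cKO. Irf8 was found in 68.4% to 84.8% of cells in every library.

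In kept cells of the linked libraries without thinning, the shares were 43.4% for Irf7, 24.1% for Stat2 and 85.0% for Irf8. Medians of these libraries were 2824 to 4274 UMIs per kept cell, and the median over kept cells of all 8 libraries was 3532. In the linked libraries, 24 cells carried markers of endothelial, choroid plexus or neuronal cells, at a median of 1383 UMIs. Among them Irf7 was found in 2 (8.33%, 1.03% to 27.0%), Irf8 in 2 and Stat2 in 0, which allows a share of up to 14.2%. Unthinned shares of Irf7 per library ran from 5.51% in control day 1 to 78.0% in A20 cKO day 3. These cells were all from linked libraries and give no background for control naive, day 1 and day 2.

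**Figure D3:**
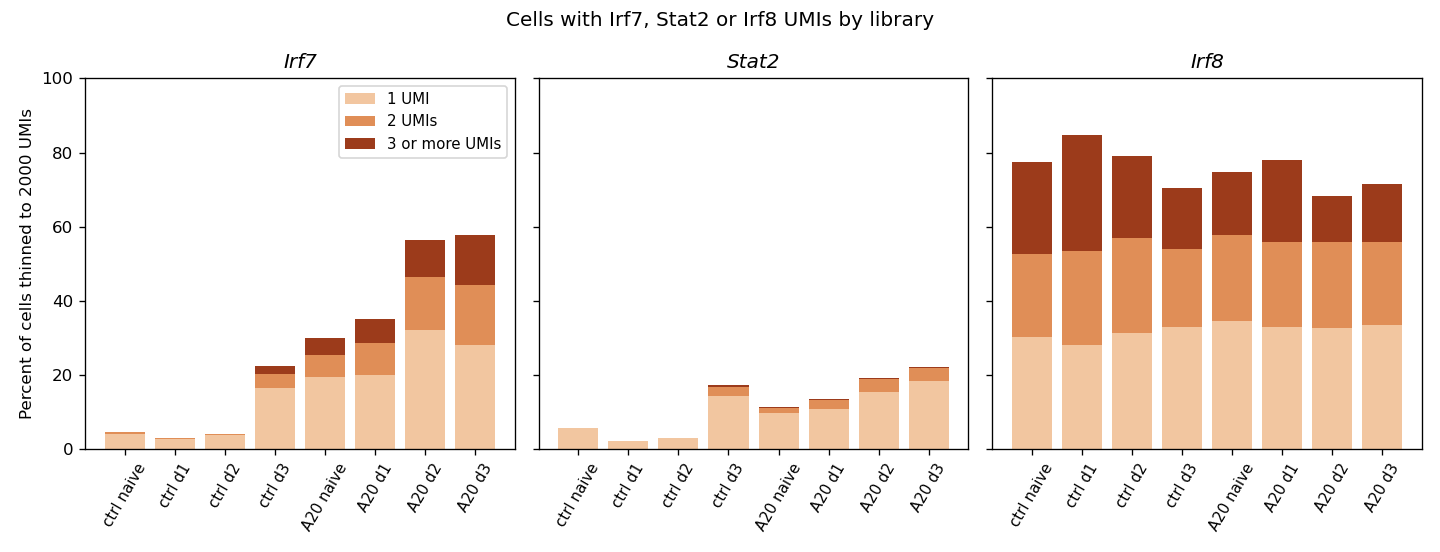
Percent of cells (y axis, cells thinned to 2000 UMIs) with 1, 2 or 3 or more UMIs of Irf7, Stat2 and Irf8 in each library (x axis). The share with any Irf7 UMI was 22.4% in control day 3 and 57.8% in A20 cKO day 3, the Stat2 shares were 17.4% and 22.3%, and the Irf8 shares 70.3% and 71.6%.

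Microglia of the linked libraries differed in how many ISG UMIs they held, and the members were compared across these cells. Each thinned cell was given its summed UMIs of 19 ISGs (among them Ifit1, Ifit2, Ifit3, Isg15, Rsad2, Mx1, Oasl1, Bst2 and Ifitm3), a list that holds none of the 9 members. Cells with 10 or more such UMIs made up 1.59%, 0.496% and 0.776% of control naive, day 1 and day 2, 25.2% of control day 3, and 23.5%, 30.4%, 64.5% and 66.0% of the A20 cKO libraries. The classes were set after the values had been seen. They are ranges of a score and not cell types.

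Irf7 and Stat2 were higher in cells with more ISG UMIs in each library that could be compared. In control day 3 Irf7 was at 50.3 CPM in the 368 cells with 0 or 1 ISG UMIs and at 402 CPM in the 473 cells with 10 or more (log2 ratio 2.98, 2.51 to 3.53). In A20 cKO naive the same classes were at 67.3 and 663 CPM (3.29, 3.01 to 3.61), and in A20 cKO day 1 at 69.0 and 736 CPM (3.39, 2.86 to 4.03). In control day 2, where 27 cells held 10 or more ISG UMIs, Irf7 was at 16.4 and 167 CPM (3.41, 2.15 to 4.36). Stat2 differed between these classes by 2.69 in control day 3, 2.75 in A20 cKO naive, 2.63 in A20 cKO day 1 and 3.26 in control day 2. Irf1 was higher by 1.05 (0.56 to 1.59), 0.94 (0.53 to 1.37) and 1.00 (0.19 to 1.93) in the 3 linked libraries named. Irf9 was higher by 0.80 (0.51 to 1.11) in A20 cKO naive, and its ratios in control day 3 (0.34) and A20 cKO day 1 (0.44) held 0 in their intervals. Irf5 was lower in control day 3 (-0.35, -0.65 to -0.04) and A20 cKO naive (-0.36, -0.57 to -0.14), and Irf2 was lower in the same libraries by -0.33 and -0.35. The Irf2 ratio in A20 cKO day 1 was 0.05 (-0.31 to 0.42). Irf8 was higher in control day 3 (0.37, 0.20 to 0.54) and not different beyond counting error in A20 cKO naive (-0.12, -0.25 to 0.01). Stat3 was higher in control day 3 only (0.66, 0.20 to 1.14). Its ratios in A20 cKO naive (-0.23, -0.62 to 0.15), A20 cKO day 1 (-0.41, -0.98 to 0.14) and control day 2 (0.49, -1.08 to 1.52) held 0 in their intervals. Those of Irf3 held 0 in each library compared. A20 cKO day 2 and day 3 held 9 and 6 cells with 0 or 1 ISG UMIs, too few for this ratio.

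Among linked cells with 10 or more ISG UMIs, Irf7 was higher and Stat2 lower in A20 cKO than in control day 3. In cells with 10 or more ISG UMIs, Irf7 was at 402 CPM in control day 3 and at 701 CPM in A20 cKO day 3 (0.80, 0.61 to 1.00), and A20 cKO naive exceeded control day 3 by 0.72 (0.55 to 0.90). Stat2 in this class was at 233 CPM in control day 3, 153 CPM in A20 cKO naive and 169 CPM in A20 cKO day 3, lower by -0.61 (-0.90 to -0.32) and -0.46 (-0.79 to -0.13). Irf1 was lower as well on day 3, at 128 and 84.5 CPM (-0.59, -1.07 to -0.14), while Irf9 differed by 0.14 (-0.23 to 0.50). Stat3 was lower in this class by -0.79 (-1.30 to -0.31) on day 3 and -0.69 (-1.09 to -0.28) in A20 cKO naive, and Irf8 by -0.17 (-0.34 to -0.003) and -0.19 (-0.33 to -0.04). Irf5 was higher in A20 cKO naive by 0.30 (0.03 to 0.58), with an interval that held 0 on day 3. The ratios of Irf2 and Irf3 held 0 in both comparisons. Cells with 5 to 9 ISG UMIs gave a day 3 ratio of 1.35 (0.90 to 1.80) for Irf7 and -0.67 (-1.55 to 0.06) for Stat2, and in A20 cKO naive against control day 3 Stat2 was lower in this class (-0.84, -1.36 to -0.34). No decrease of Stat2 passed its interval in the lower classes, and on day 3 its ratio in cells with 2 to 4 ISG UMIs was 0.39 (-1.21 to 1.49). Across the split of the libraries both genes were higher in A20 cKO in some classes, as in cells with 2 to 4 ISG UMIs on day 2 (3.18 for Irf7 and 2.80 for Stat2) and with 0 or 1 on day 1 (2.59 and 1.39). Mean ISG UMIs in the highest class were close, 19.9 in control day 3, 19.9 in A20 cKO naive and 19.5 in A20 cKO day 3. The ISGs themselves did not move as a block: on day 3 Ifitm3 was higher in A20 cKO by 1.66 and Ifit1 by 0.17, so a class can hold different ISGs in each genotype, and the part of this in the ratios was not tested.

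Within A20 cKO, the class with 10 or more ISG UMIs held like levels of Irf7 in naive mice and after injury: 663, 736, 613 and 701 CPM in naive, day 1, day 2 and day 3. The ratio of day 3 to naive in this class was 0.08 (-0.08 to 0.24), against 0.99 over all cells, while the share of cells in the class was 23.5% in naive mice and 66.0% on day 3. In cells with 2 to 4 ISG UMIs, Irf7 was higher on day 3 than in naive mice (208 and 94.99 CPM, 1.16, 0.38 to 1.81), from 48 cells on day 3.

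**Figure D4:**
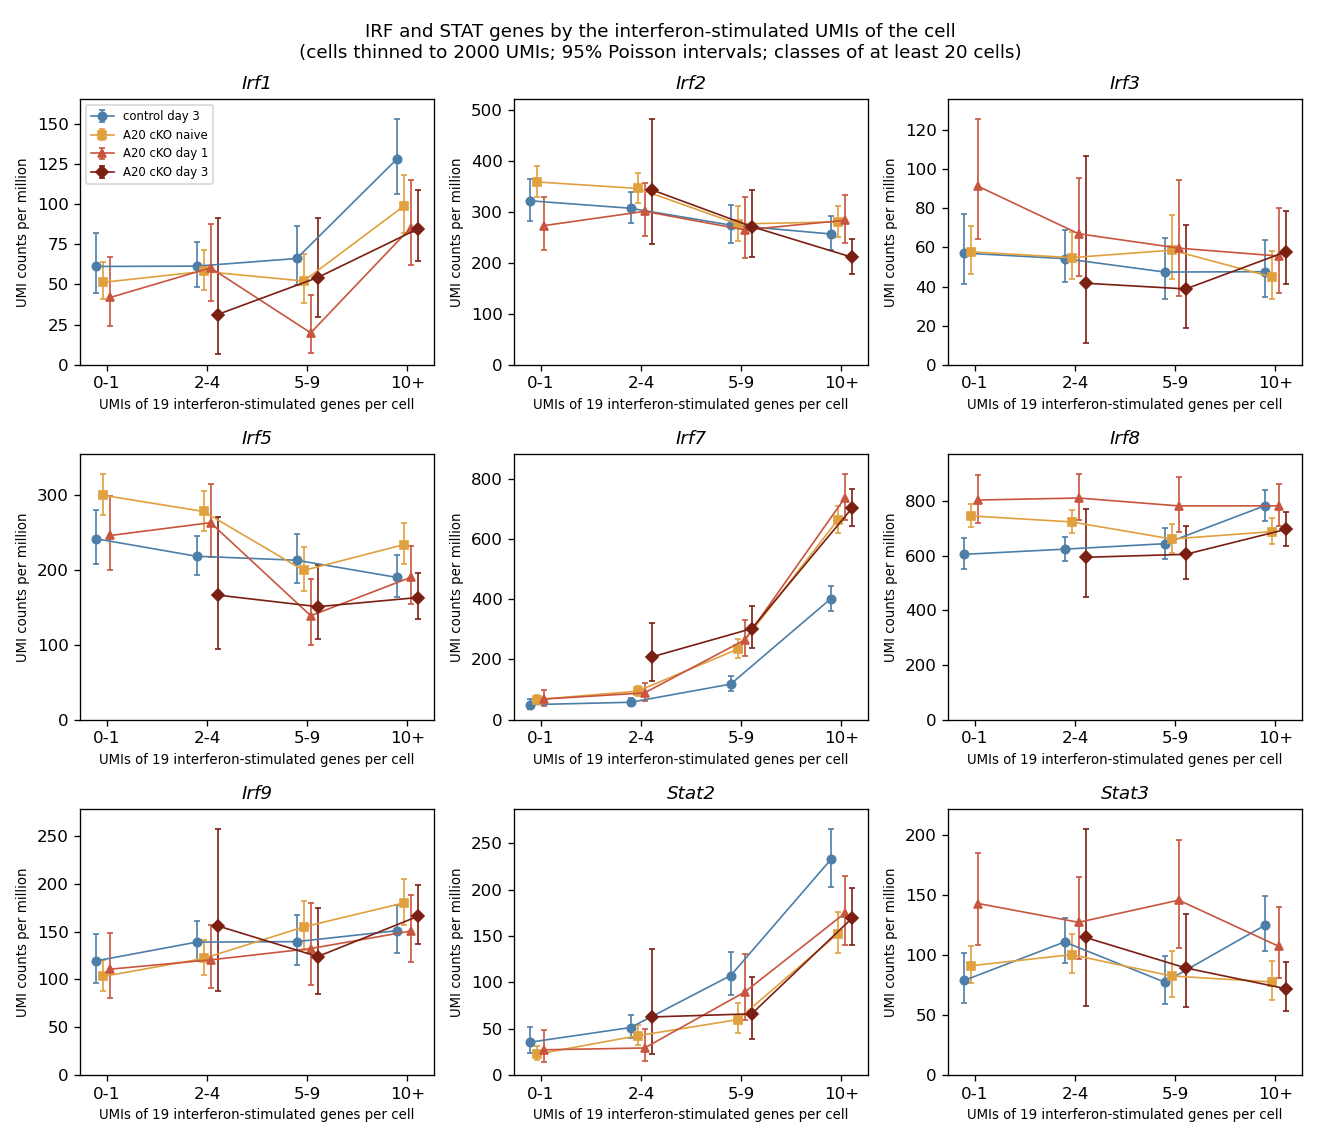
Level of each member (y axis, CPM in cells thinned to 2000 UMIs, with 95% Poisson intervals) by the number of ISG UMIs in the cell (x axis, 4 classes) in control day 3 and in A20 cKO naive, day 1 and day 3, for classes of at least 20 cells. Irf7 and Stat2 were highest in the class with 10 or more ISG UMIs, where control day 3 had the lowest Irf7 (402 CPM) and the highest Stat2 (233 CPM).

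Cycling cells, those with UMIs of at least 3 core G2/M genes, were compared with cells that held neither G2/M nor S phase genes at this number. Irf7 in cycling cells was 157 CPM against 164 CPM in the rest in control day 3 (-0.06, -0.30 to 0.17). It was higher in cycling cells in A20 cKO naive (396 against 252 CPM, 0.66, 0.43 to 0.87, 92 cycling cells) and day 1 (487 against 348 CPM, 0.49, 0.15 to 0.81, 33 cells). In A20 cKO day 3 it was lower (439 against 545 CPM, -0.31, -0.58 to -0.06, 49 cells). The ratios in A20 cKO day 2 (0.08, -0.09 to 0.25, 106 cells) and control day 2 (0.08, -0.26 to 0.42) held 0 in their intervals. Irf2 was lower in cycling cells in control day 2 (-0.28), control day 3 (-0.38), A20 cKO naive (-0.39) and A20 cKO day 2 (-0.46), each beyond its counting interval.

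The rest of the pathway is given for lists taken with the members, first for ligands and receptors. Of 8 interferon genes, Ifnb1, the type I interferon that Irf3 and Irf7 drive, was at 0, 2, 0 and 3 UMIs in the control libraries and at 8, 4, 15 and 12 UMIs in A20 cKO, in 3, 4, 5 and 9 cells. In these few A20 cKO cells Irf7 was at 981 to 1660.1 CPM, from 11 to 42 Irf7 UMIs per library. The 3 cells with Ifnb1 in control day 3 held 6 Irf7 UMIs (447 CPM), and the 2 in control day 1 held 0. Ifna2 was found as 1 UMI in A20 cKO naive and Ifng as 2 UMIs in control day 2, and the other 5 genes had none. Of 12 receptor and kinase genes, none was 2-fold higher or lower in A20 cKO against control in naive mice or on day 3. Over all genes, 7.43% were higher and 2.22% lower in naive mice, and 1.86% and 2.40% on day 3. Ifnar1, a subunit of the type I interferon receptor, was higher in naive A20 cKO by 0.63 (0.40 to 0.88) and by 0.12 (-0.05 to 0.28) on day 3. Il6st, the shared IL-6 family subunit, was lower by -0.76 in naive mice, and Il6ra was lower on day 3 (-0.67).

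Among 16 tested genes that activate IRFs, 2 were 2-fold higher in naive A20 cKO against control, where 7.43% of all genes were: Ifih1, a cytosolic RNA sensor (2.30, 17.3 and 86.6 CPM), and Tlr3, an endosomal RNA sensor (1.18). On day 3, 1 of 16, the adaptor Traf3, was past this line (1.28), against 1.86% of all genes. Ikbke, a kinase that phosphorylates Irf3 and Irf7, had too few UMIs to be tested, with 6 in control day 3 and 35 in A20 cKO day 3 (3.97, 2.80 to 5.60). Of 13 feedback genes, 2 were 2-fold higher in naive A20 cKO (7.43% of all genes), Usp18 (3.20), which restrains the type I interferon receptor through Stat2, and Socs3 (1.27), a target and inhibitor of the Stat3 pathway. On day 3 Usp18 (1.14) and Irf2bp1 (1.46) were 2-fold higher and Irf2bpl (-1.02) lower, against 1.86% and 2.40% of all genes.

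ISGF3 targets were mostly higher in the linked libraries, as Irf7 and Stat2 were. In naive A20 cKO 16 of 19 were 2-fold higher than in control naive, against 7.43% of all genes, with a median log2 ratio of 2.71 against 0.04, from Xaf1 (0.77) to Ifit2 (5.01, 4.94 and 169 CPM). On day 3, within the linked libraries, 5 of 19 were 2-fold higher and none lower (1.86% and 2.40% of all genes), with a median of 0.56 against -0.12. Oasl1 (1.78) and Ifi44 (3.75) were among the 5, whereas Rsad2 (105 and 106 CPM) and Cmpk2 (-0.15) were not different beyond counting error. In control day 1 against naive, 7 of 11 tested targets were 2-fold lower and none higher (7.25% and 3.82% of all genes), with a median of -1.33. Of targets linked to Irf1, 7 of 13 were 2-fold higher in naive A20 cKO (7.43% of all genes), with Iigp1 at 4.99 (3.08 to 10.88, from 1 UMI in control naive) and Igtp at 0.27. On day 3, against the same 1.86% and 2.40%, 2 of 12 were higher, B2m (1.57) and Nlrc5 (1.24), and 1 was lower, Gbp7 (152 CPM in control and 75.9 CPM in A20 cKO).

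Irf8 acts with partner factors such as PU.1, and Stat3 has targets of its own. Of 4 tested partners of Irf8, Runx1 was 2-fold higher in naive A20 cKO (1.09), where 7.43% of all genes were, and Spi1, which encodes PU.1, was lower by -0.50 (-0.61 to -0.39). On day 3, 0 of 5 was past 2-fold (1.86% higher and 2.40% lower over all genes). Of 6 tested Stat3 targets, Cebpb (1.36) and Socs3 (1.27) were 2-fold higher in naive A20 cKO (7.43% of all genes), and on day 3 Pim1 (-1.02) was lower (2.40% of all genes). Socs3 was highest in control day 1, at 599 CPM against 43.2 CPM in control naive. In the same library the immediate-early genes Fos (4105 against 20.4 CPM) and Egr1 (848 against 11.7 CPM) were also highest, and their part in the levels of Socs3 or Stat3 was not tested. Other STAT genes were low, with Stat6 at 58.4 CPM in A20 cKO naive and 64.2 CPM in control naive (-0.14, -0.44 to 0.18), and Stat5a and Stat5b under 25 CPM in both.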

How the data were processed

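Raw UMI counts per gene and barcode were deposited by the authors as sparse matrices without normalization. Per the submitters' processing notes, Cell Ranger 2.1.1 and the build mm10 were named. The kit version differs between labels and methods. The study filtered cells on genes, UMIs and mitochondrial reads, with cut-offs not given in the sources used here.

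Cells with at least 1000 UMIs, 500 genes and at most 10% mitochondrial UMIs were kept, 14626 of 14883, with library totals of 1648400 to 15817426 UMIs. No doublet caller was run, and the sort excluded doublets by the methods. Genes were given as UMI sums scaled to CPM. Log2 ratios used 0.5 added UMIs and exact conditional intervals, levels exact Poisson intervals and shares exact Clopper-Pearson intervals, all at 95%. Variation between animals is not covered. A gene counted as past 2-fold at a log2 ratio of 1 or -1, with at least 100 UMIs in both libraries together. Interval coverage was tested on simulated data. Cells thinned to 2000 UMIs were used for shares and ISG classes. ISG classes, their minimum of 20 cells for a ratio, and the rule for cells of other types (at least 3 markers of 1 list and under 0.5% microglia marker UMIs) were chosen after the values were seen. Members and gene lists were chosen with earlier results of these data known. Listed genes were named by the largest and smallest log2 ratio in A20 cKO against control in naive mice or on day 3, the nearest profiles by rank for members with an SD of at least 0.5, and genes such as Tlr3, Socs3, Ifnar1, Il6ra, Ikbke, Ifit1, Fos and Egr1 after their values were seen. A gene of the lists and of the rule is not reported here. Positions are from GENCODE M21, which held 98.7% of the gene identifiers. Python 3.11.15, numpy 2.4.6, scipy 1.17.1 and pandas 2.3.3 were used. Alternatives were the cell filter, scaling, pseudocount, shared barcodes, high-UMI cells, cycling cells, cells with markers of other types and the thinning.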

Additional observations from a re-analysis of the deposited data

Results flagged for a closer look

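For 4 pairs of ratios, control and A20 cKO pointed in opposite directions, with 1 library per group, and the difference was not tested. Irf2 on day 3 against naive was 0.50 in control and -0.46 in A20 cKO on the log2 scale. Irf7 on day 1 against naive was -0.76 in control and 0.39 in A20 cKO. Stat2 was -1.32 in control and 0.23 in A20 cKO on day 1, and -0.75 and 0.57 on day 2. The control values for Irf2 on day 3 compare a linked library with one that is not, while both values of Irf7 and Stat2 come from within one set of libraries each.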

How the results depend on the processing

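No paired analysis was possible because each group was 1 library. Of 99 log2 ratios (9 members in 11 comparisons), no call at 2-fold turned its direction under any of 11 alternatives. With no cell filter, a stricter filter, 1 UMI added, shared barcodes left out, high-UMI cells left out, or top genes left out of the total, all 99 stayed within their counting interval. The mean of cell CPM moved 5 ratios by more (largest change 0.23), scaling to the median gene 11 (-0.20), leaving out cycling cells 3 (-0.20) and leaving out cells with 2 or more UMIs of any other-type marker list 11 (-0.36). The last setting kept 10670 cells, and with markers that microglia also hold not used (chosen after the data were seen) it kept 13769 and moved 0. The count of members 2-fold higher in A20 cKO day 2 or day 3 against naive, 0, became 1 (Irf7) with the mean of cell CPM, relative to the median gene, without cycling cells, without high-UMI cells and with either setting for other cell types, since Irf7 lay at 1.00 and 0.99. Day 3 Irf7 against control was 1.78 by the mean of cell CPM and 1.76 relative to the median gene. A second thinning seed moved 3 of 72 shares beyond their interval. Thinning to 1000 UMIs moved 72 and no thinning 70, since a share of cells with a UMI depends on depth. Without cells holding other-type markers Irf7 was 0.45 in A20 cKO naive against control day 3 and 0.19 in A20 cKO day 1 against naive, and relative to the median gene Irf2 on day 1 between genotypes was 0.81. The cause was not tested. The smallest library, control naive with 568 kept cells, limits every ratio to it.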
